A study of Mus musculus with 12 samples.

Results

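Toll-like receptors, the lipopolysaccharide co-receptor CD14 and their nearest partners were followed across 12 RNA sequencing libraries of fibroblast cultures from mouse paws injected with monosodium urate (MSU) crystals, the crystals of gout. The group holds 10 genes, Tlr1, Tlr2, Tlr3, Tlr4, Tlr6, Tlr7, Cd14, Ly96, Lbp and Myd88, out of 55413 genes in the deposited table. They were chosen by symbol as receptors linked to crystal sensing, and all 10 had a mean of at least 3 over the libraries and were tested among 16459 genes. Cells were grown from collagenase-digested paws of BALB/c mice for 5 passages in medium with calf serum, each culture being a pool of 2 to 3 paws, and RNA was taken on day 18. The mice carried no transgene that the labels name.

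The 4 groups held 3 libraries each. In vitro treated cells came from primed paws (left, crystals on day 0 and day 9) and met I-BET151 only in the dish, at 1 µM during the last 24 h; the labels do not say whether these mice had received vehicle. In vivo treated cells came from primed paws of mice given I-BET151 by daily intraperitoneal injection of 20 mg/kg, begun 1 day ahead of the first crystal injection. Primed vehicle cells came from primed paws, and non-primed vehicle cells from the right paws (crystals on day 9 alone), of mice whose injections held no I-BET151. Every culture thus came from a paw that had met crystals at least 1 time, and paw side went together with priming. I-BET151 blocks the bromodomains with which BET proteins bind acetylated histones. Expression is given as rlog, a regularized logarithm in log2 units; it holds no read totals, and depth is therefore unknown. Nothing in the labels ties libraries to separate animals, and p-values measure the spread between these pooled cultures.

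Toll-like receptors recognise microbial molecules and products of damaged cells. TLR4 binds lipopolysaccharide through MD-2, the product of Ly96, after LBP has carried it to CD14. TLR2 works in pairs with TLR1 or TLR6 on bacterial lipopeptides, and TLR3 and TLR7 sense double-stranded and single-stranded RNA in endosomes. All of these receptors except TLR3 signal through the adaptor MyD88 to NF-kB. TLR2, TLR4 and CD14 have been described as participants in the response of phagocytes to urate crystals.

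The libraries differed in cell content along lines that the group labels follow only in part, since the in vivo group was mixed. The mean over 15 pigment cell markers lay at 12.6 to 13.97 in the libraries labelled non-primed 1 to 3 and in vivo 2 and 3, and at 5.609 to 6.692 in the other 7. Of the 15, Ednrb went the other way, at 3.28 to 5.31 in those 5 libraries and 5.80 to 9.35 in the other 7. Sox10 (10.17 to 13.36) and Mitf (10.31 to 12.74) were still well expressed in the other 7. Over 10 fibroblast markers the mean was 5.907 to 10.48 in those 5 libraries and 13.98 to 14.96 in the other 7, so that the labelled fibroblast identity was weakest where pigment markers were high. Macrophage markers (15 genes) ranged widely in level: Lyz2, lysozyme, reached 13.34 to 15.42 in vitro and 13.22 to 14.27 in primed vehicle libraries, while Cd163 was at most 1.30 in any library. The mean over the markers was 7.089 to 8.287 in vitro, 3.905 to 6.64 in vivo, 7.723 to 8.361 in primed vehicle and 3.321 to 5.745 in non-primed libraries, and no marker was listed at 0. Library non-primed 3 was closer to in vivo 2 and 3 (median absolute difference over tested genes 0.107 and 0.098 log2 units) than to non-primed 1 and 2 (0.48 and 0.482). Library in vivo 1 was closer to in vitro 1 to 3 (0.149, 0.172 and 0.22) than to in vivo 2 and 3 (0.648 and 0.649). The part of the cell mixture in the results below was not tested, except where values without these libraries are given. In RNA of whole cultures, fewer cells of a type and less RNA per cell cannot be told apart.

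**Figure D1:**
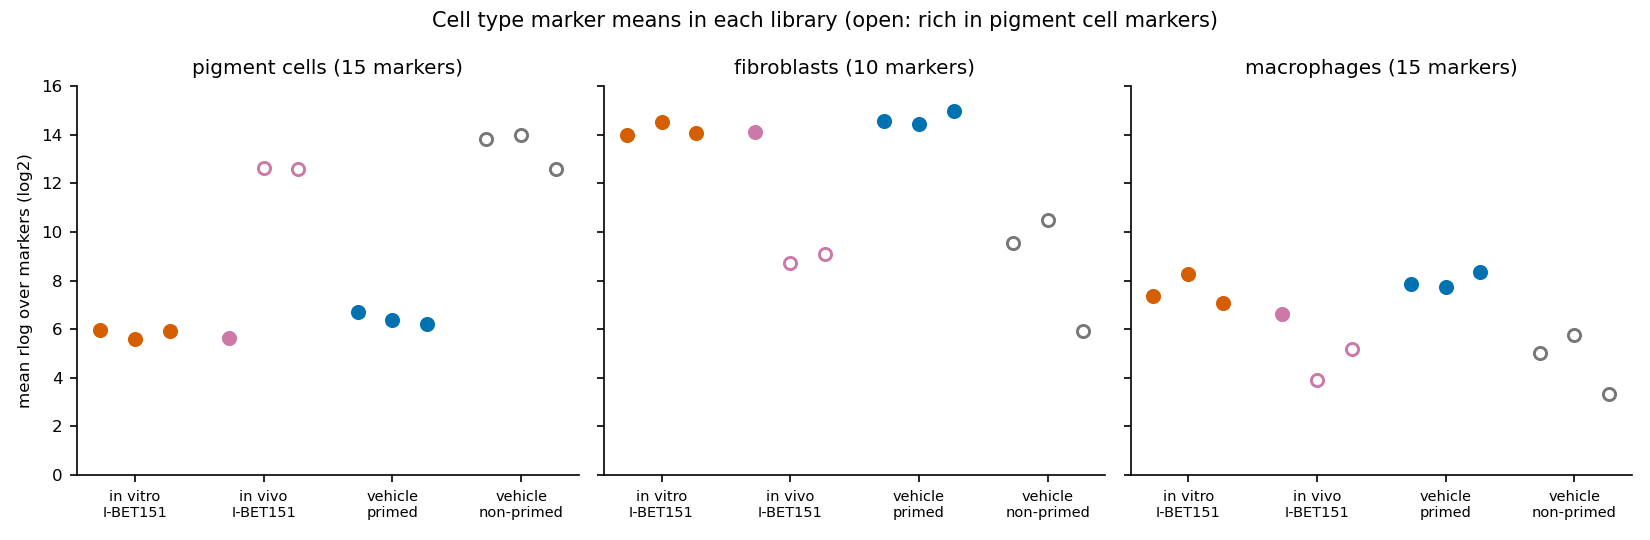
Mean rlog value (log2) over the markers of pigment cells, fibroblasts and macrophages in each of the 12 libraries, in replicate order 1 to 3 within a group; open points are the 5 libraries rich in pigment cell markers. The in vitro and primed vehicle libraries lie at 5.609 to 6.692 for pigment cell markers, while all 3 non-primed libraries lie at 12.6 or above.

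Tlr1 and Tlr6 are neighbours and close paralogues. On GRCm38 (GENCODE M21) Tlr6 lies at chromosome 5, 64952031 to 64960097, and Tlr1 at 64924679 to 64933563 on the same strand, 18467 bases apart. Their transcripts shared 454 of the 3332 different stretches of 50 bases in Tlr1 (13.6%) and 12.3% of those in Tlr6, while no other pair of the 6 receptors shared any. A read lying wholly within such a stretch matches both genes, and how such reads were counted is not given in the sources used here. Both values may carry that uncertainty. Another 2 genes overlap others in the annotation. Of Tlr3 (chromosome 8, 45395665 to 45411080) 2 exons reach into an antisense gene, Gm45542. Of Myd88 (chromosome 9, 119335934 to 119341411) all 5 exons reach into the span of Slc22a14 on the same strand. In addition, 2 Myd88 exons reach into that of Acaa1a on the other strand. These overlaps are with the whole span of the other gene, introns included. The strand setting of the counting is not given in the sources used here. Whether reads were shared between these genes was therefore not determined.

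RefSeq promoter sequences (GRCm38.p6, 250 bases before to 50 after an annotated start) were at hand for 5 of the 10 genes, Tlr1, Tlr2, Tlr3, Tlr6 and Myd88. Those of 4 genes are printed because they hold a searched motif and their transcripts are compared below; capitals mark letters that match a searched motif on either strand. The motifs were the NF-kB consensus (by its name), AP-1 (TGANTCA), the interferon regulatory factor repeat (GAAA, any 2 bases, GAAA) and TATAAA.
Tlr2, chr3:83841559-83841858, minus strand: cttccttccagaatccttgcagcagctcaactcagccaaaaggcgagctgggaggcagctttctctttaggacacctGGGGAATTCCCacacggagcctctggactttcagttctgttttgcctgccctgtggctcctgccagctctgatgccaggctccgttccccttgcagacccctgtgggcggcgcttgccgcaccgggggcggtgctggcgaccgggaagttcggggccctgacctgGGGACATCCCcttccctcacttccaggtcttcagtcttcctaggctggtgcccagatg
Tlr3, chr8:45410331-45410630, minus strand: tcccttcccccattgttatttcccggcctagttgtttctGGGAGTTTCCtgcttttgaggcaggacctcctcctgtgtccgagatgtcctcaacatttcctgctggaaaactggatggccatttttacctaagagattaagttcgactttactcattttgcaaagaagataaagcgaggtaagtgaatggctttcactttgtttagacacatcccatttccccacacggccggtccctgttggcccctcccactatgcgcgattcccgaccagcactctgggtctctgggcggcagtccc
Tlr6, chr5:64959117-64959416, minus strand: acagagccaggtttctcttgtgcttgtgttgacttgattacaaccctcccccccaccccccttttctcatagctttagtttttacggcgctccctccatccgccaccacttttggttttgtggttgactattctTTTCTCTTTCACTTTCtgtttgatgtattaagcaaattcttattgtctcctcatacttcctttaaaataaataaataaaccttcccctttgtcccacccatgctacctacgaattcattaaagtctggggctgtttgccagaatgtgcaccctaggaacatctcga
Myd88, chr9:119339969-119340268, minus strand: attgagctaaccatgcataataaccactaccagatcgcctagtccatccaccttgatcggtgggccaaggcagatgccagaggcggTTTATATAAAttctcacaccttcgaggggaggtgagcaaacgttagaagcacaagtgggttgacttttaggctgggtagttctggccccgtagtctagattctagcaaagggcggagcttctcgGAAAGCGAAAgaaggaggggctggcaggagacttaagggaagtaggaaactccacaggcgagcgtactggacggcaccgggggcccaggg

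In the Tlr2 window the NF-kB consensus matched at -173 and -172, which overlap, and at -8, counted from the start site. The Tlr3 window held a match at -211. Over 32851 promoter windows of the same length, 8.46% held the NF-kB consensus, 7.81% AP-1, 3.44% the interferon regulatory factor repeat and 13.6% TATAAA. The Tlr6 window held overlapping repeats from -116 and -110, and that of Myd88 a repeat from -40 and TATAAA from -164 (reverse strand) and -160. Of the 2 windows of Tlr1 neither held any of the 4 motifs, and the second Tlr6 window held TATAAA at 3 places. These matches describe letters in the windows only.

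Cd14, Ly96 and Tlr4, the lipopolysaccharide receptor complex, were each highest in primed vehicle cultures. Cd14, the co-receptor that hands lipopolysaccharide to TLR4, stood at 8.60, 9.36 and 8.93 in the 3 in vitro treated libraries, at 7.26, 4.86 and 5.00 in the in vivo treated ones, at 11.05, 11.42 and 12.27 in primed vehicle and at 4.06, 6.18 and 2.38 in non-primed libraries. All 6 treated libraries lay below every primed vehicle library, and the in vivo and non-primed values overlapped. Ly96 stood at 8.15, 8.33 and 8.69 in vitro, 7.90, 7.55 and 7.75 in vivo, 9.83, 10.06 and 10.12 in primed vehicle and 8.59, 8.78 and 7.51 in non-primed libraries. Only the primed vehicle libraries of Ly96 were above 9. Tlr4, the receptor itself, covered a narrower range, with 10.85, 11.10 and 11.04 in vitro, 10.67, 10.57 and 10.65 in vivo, 11.96, 12.27 and 11.94 in primed vehicle and 11.88, 11.69 and 10.61 in non-primed libraries. Its in vivo SD was 0.053, and these 3 libraries differed widely in pigment markers.

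Lbp encodes the secreted lipopolysaccharide carrier. It stood at 13.54, 13.63 and 12.22 in vitro, at 11.03, 7.82 and 7.56 in vivo, at 11.80, 13.29 and 12.58 in primed vehicle and at 6.21, 7.76 and 3.97 in non-primed libraries. The in vitro and primed vehicle values overlapped, and the highest in vivo value belonged to library 1, the in vivo library low in pigment markers. Myd88, the shared adaptor, stood at 10.53, 10.85 and 10.81 in vitro, 10.31, 9.15 and 9.23 in vivo, 11.21, 11.27 and 11.14 in primed vehicle and 9.41, 9.57 and 9.13 in non-primed libraries. In vivo library 1 again lay above the other in vivo libraries.

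Tlr2 lay lower in every treated library than in every primed vehicle library. The same held for 9 of the 10 genes in vitro and all 10 in vivo, against 25.7% and 26.4% of all genes. The in vivo and non-primed values of Tlr2 overlapped. It stood at 10.53, 10.77 and 10.57 in vitro, at 8.89, 8.40 and 8.32 in vivo, at 12.50, 13.68 and 12.72 in primed vehicle and at 9.44, 9.63 and 7.79 in non-primed libraries. The in vivo values were below the in vitro values in every library, also in in vivo library 1. Its partners Tlr1 and Tlr6 had unlike patterns. Tlr1 stood at 3.41, 4.21 and 3.34 in vitro, 3.47, 3.42 and 4.02 in vivo, 5.53, 6.82 and 6.70 in primed vehicle and 7.43, 7.52 and 3.84 in non-primed libraries. Treated libraries of both kinds lay close to library non-primed 3, and non-primed 1 and 2 were above every other library. Tlr6 stood at 7.69, 7.76 and 7.41 in vitro, 7.80, 4.76 and 4.61 in vivo, 8.10, 8.36 and 8.77 in primed vehicle and 4.56, 4.96 and 4.61 in non-primed libraries. The 5 Tlr6 values under 5 were those of the 5 pigment-rich libraries.

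The endosomal receptors differed from each other too. Tlr3 stood at 8.28, 8.89 and 8.69 in vitro, 7.93, 9.63 and 9.79 in vivo, 10.52, 10.56 and 10.92 in primed vehicle and 11.13, 11.35 and 9.79 in non-primed libraries. Its lowest values were in the 4 treated libraries low in pigment markers. Tlr7 stood at 3.82, 6.03 and 5.72 in vitro, 3.82, 1.31 and 2.55 in vivo, 7.93, 7.85 and 7.75 in primed vehicle and 3.13, 4.51 and 1.85 in non-primed libraries. At such levels the rlog transformation shrinks differences, so those of Tlr7 and Tlr1 may be understated.

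**Figure D2:**
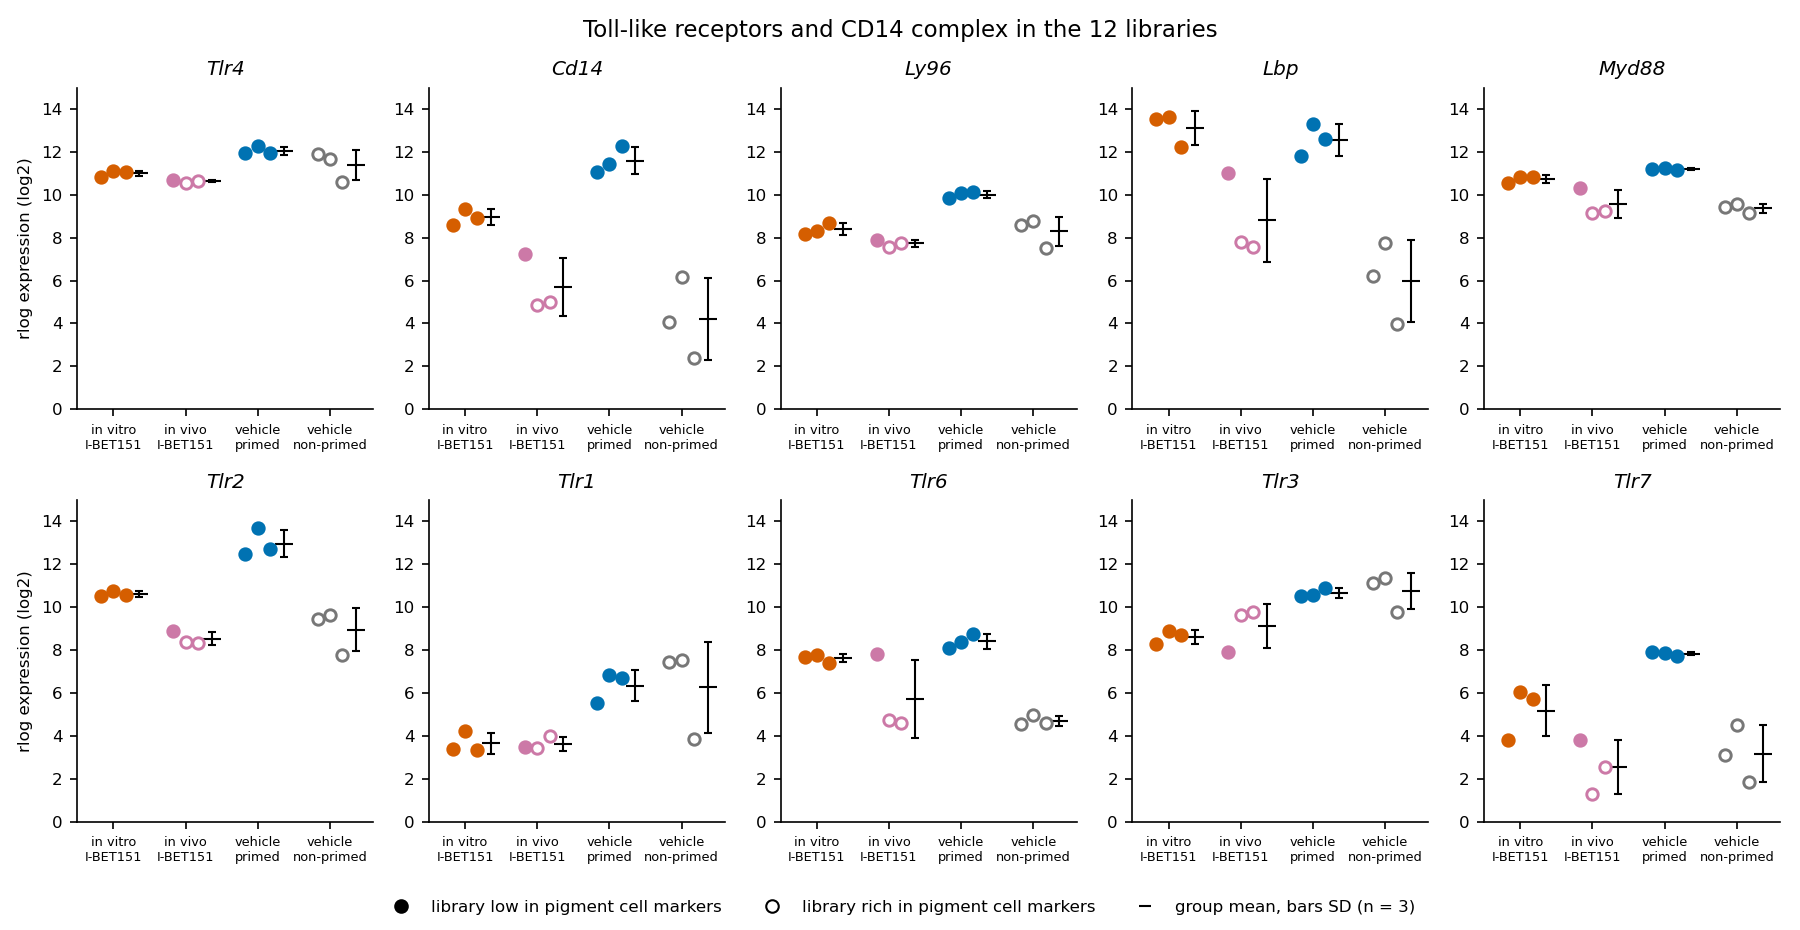
Expression (rlog, log2 units) of the 10 genes in each library by group, with the group mean and SD (n = 3) beside the points; open points are libraries rich in pigment cell markers. Cd14, Ly96, Tlr2, Tlr4 and Tlr7 are highest in the primed vehicle group, whereas Lbp overlaps between in vitro and primed vehicle libraries and Tlr6 is under 5 in each pigment-rich library.

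Levels can be set against each other between genes only per length, and on that scale (rlog minus log2 of the merged exon length in kb) Tlr2 led in primed vehicle cultures at 11.37 (10.91 to 12.09), followed by Cd14 at 10.79, Lbp at 10.28, Ly96 at 9.97, Myd88 at 9.84 and Tlr4 at 9.58. Tlr3 (8.29), Tlr6 (6.51), Tlr7 (5.81) and Tlr1 (4.61) were lower. The ranges of Tlr2, Cd14 and Lbp over libraries overlapped (Lbp 9.53 to 11.02). In vitro treated cultures were led by Lbp at 10.86 and Myd88 at 9.36, with Tlr2 at 9.03 and Cd14 at 8.17. In vivo treated cultures were led by Myd88 at 8.20 (7.78 to 8.94) and Tlr4 at 8.16 (8.10 to 8.20), with overlapping ranges. Lbp ranged there from 5.29 to 8.76. Non-primed cultures were led by Tlr4 at 8.92 (8.14 to 9.41), overlapping with Tlr3 at 8.38 (7.41 to 8.97), with Cd14 at 3.41.

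Any difference between the 4 groups was tested first. All 10 genes passed the moderated F test of limma, where 58.1% of all genes tested passed. Tlr2 had the smallest adjusted p (0.00188, rank 57 among 16459 genes), followed by Cd14 (0.00262, rank 223), and Tlr1 the largest (0.0231).

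In vitro treated were compared with primed vehicle cultures to ask what 24 h of BET inhibition changed in cells already grown out; both groups are low in pigment markers. In the fit of all 12 libraries Tlr2 and Ly96 fell. Tlr2 averaged 10.62 ± 0.13 in treated and 12.97 ± 0.62 in vehicle cells (SD, n = 3 each), a difference of -2.34 ± 0.46 log2 units (SE; limma adjusted p = 0.0272). Ly96 differed by -1.61 ± 0.32 (limma adjusted p = 0.0287). These were 2 of 10 genes called lower, against 2.76% of all genes, and none was called higher, against 1.76%, with a median over the 10 of -1.83 against -0.02 over all genes. The call on Tlr2 was lost on leaving out vehicle library 2 or 3 or any in vitro library, and that on Ly96 on leaving out any vehicle library or in vitro library 1 or 2.

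The standard errors of that fit take in the spread of the mixed groups. When the fit held the 6 in vitro and vehicle libraries alone, 9 of the 10 genes fell, against 16.9% of all genes called lower, and in vivo library 1 added to it left the same count, against 16.8%. In the same 9 genes every treated library lay below every vehicle library, as in 25.7% of all genes. Tlr1 differed by -2.70 ± 0.43 (limma adjusted p = 0.00586), Tlr7 by -2.66 ± 0.56, Cd14 by -2.61 ± 0.33, Tlr3 by -2.05 ± 0.20 and Tlr4 by -1.06 ± 0.12. Tlr6 (-0.79 ± 0.22, limma adjusted p = 0.0377) and Myd88 (-0.48 ± 0.11, limma adjusted p = 0.0213) changed least among those called. Lbp was the exception, at 13.13 ± 0.79 in treated and 12.56 ± 0.74 in vehicle cells (SD, n = 3 each), a difference of 0.57 ± 0.48 (SE; limma adjusted p = 0.402). With each of these 6 libraries left out in turn, 7 or 8 genes stayed called lower, beside 1547 to 2559 of the 16459 genes tested. Tlr1, Tlr2, Tlr3, Tlr4, Tlr7, Cd14 and Ly96 passed each time, whereas Tlr6 and Myd88 did not.

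Of 12 macrophage markers tested none passed in either fit, and their median difference was -0.19; their part in the falls above was not tested. Ptprc, the leukocyte antigen CD45, stood at 7.73, 8.46 and 6.64 in treated and 7.40, 7.91 and 8.22 in vehicle cells, and Csf1r, the macrophage growth factor receptor, at 9.06, 9.91 and 7.35 against 9.41, 9.91 and 10.10. In vitro library 3 had the lowest level of each in either group. Not every macrophage marker followed these 2. Itgam was lowest in in vitro library 1 (5.49, against 6.61 in library 3), and Mertk was highest among in vitro libraries in library 3 (9.50). The mean over all 15 markers was 7.351, 8.287 and 7.089 in in vitro libraries 1 to 3. Of 10 fibroblast markers 1 fell in the fit of 6 libraries, and 2 of 15 pigment cell markers.

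In vivo treated were compared with primed vehicle cultures to ask what the inhibitor changed when given during the crystal exposures. All 10 genes fell, against 21.8% of all genes called lower, with a median of -2.70 against -0.05 over all genes. In the same fit 9 of 12 macrophage markers (median -3.15) and 5 of 10 fibroblast markers (median -3.99) fell as well, and 5 of 15 pigment cell markers rose and 1 fell; their part in these falls was not tested. Cd14 averaged 5.71 ± 1.35 in treated and 11.58 ± 0.63 in vehicle cells (SD, n = 3 each), a difference of -5.87 ± 0.90. Tlr7 differed by -5.28 ± 0.82, Tlr2 by -4.43 ± 0.46 (limma adjusted p = 0.000938), Lbp by -3.75 ± 1.06 and Ly96 by -2.27 ± 0.32. Tlr1 (-2.71 ± 0.86, limma adjusted p = 0.031) and Tlr3 (-1.55 ± 0.51, limma adjusted p = 0.0368) were nearest the threshold. In each of the 10 genes all 3 treated libraries lay below all 3 vehicle libraries, as in 26.4% of all genes.

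Without in vivo libraries 2 and 3, the pigment-rich ones, 1 gene was called in the fit of the remaining 10 libraries, Tlr2 (-4.07 ± 0.68, limma adjusted p = 0.04), against 0.808% of all genes lower and 0.377% higher. A fit of only the 7 libraries low in pigment markers, in which in vivo library 1 is assumed to vary like the other groups, called 8 of 10 genes lower, against 11.8% of all genes, and none higher, against 8.68%. There Cd14 differed by -4.32 ± 0.47, Tlr7 by -4.02 ± 0.79, Tlr3 by -2.74 ± 0.28, Ly96 by -2.11 ± 0.26 and Tlr4 by -1.39 ± 0.18. Tlr6 (-0.61 ± 0.32, limma adjusted p = 0.21) and Lbp (-1.52 ± 0.68, limma adjusted p = 0.154) were not called, and their values in the fit of all libraries were -2.69 and -3.75. Macrophage markers in in vivo library 1 had a mean of 6.64, below the 7.723 to 8.361 of vehicle, and 1 of 12 tested fell in the fit of 7 libraries (median -1.45), against 9 in the fit of all libraries. In the fit of all groups, 6 genes were called without vehicle library 3 (11.8% of all genes) or without in vivo library 2 (8.91%), where Tlr1, Tlr3, Tlr6 and Lbp did not pass. It was 7 without vehicle library 2 (not Tlr1, Tlr3 or Lbp) or in vivo library 3 (not Tlr1, Tlr6 or Lbp). Over the 16459 genes tested, 2111 were called lower without vehicle library 2 and 1446 without in vivo library 3. Tlr3 was also lost without vehicle library 1 or in vivo library 1. With the 6 in vivo and vehicle libraries alone 8 genes fell, against 13.8% of all genes (10.2% higher), and Tlr3 and Tlr6 did not pass; 8 of 12 macrophage and 3 of 10 fibroblast markers fell there. Over all genes 2946 were called higher and 3585 lower, a split that became 4595 and 2967 with quantile normalization (median difference 0.19) and 4029 and 2964 with median-centred libraries (0.13); quantile normalization left all 10 genes called lower and median centring all but Tlr3.

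Primed were compared with non-primed vehicle cultures to ask how a paw that had met crystals before differed from one that had not. Cd14, Lbp, Tlr7, Tlr2, Tlr6, Myd88 and Ly96 rose, 7 of 10 genes, against 28.9% of all genes called higher, and none fell, against 22.9%. With the 6 vehicle libraries alone the count was 7 again, against 27.7% (21.2% lower). The median was 2.77, against 0.05 over all genes. Cd14 averaged 11.58 ± 0.63 in primed and 4.21 ± 1.90 in non-primed cells (SD, n = 3 each), a difference of 7.37 ± 0.90 (limma adjusted p = 0.000732). Lbp differed by 6.58 ± 1.06, Tlr7 by 4.68 ± 0.82, Tlr2 by 4.01 ± 0.46, Tlr6 by 3.70 ± 0.70, Myd88 by 1.84 ± 0.28 and Ly96 by 1.71 ± 0.32. Every non-primed library was pigment-rich and every primed one was not, so priming and cell content cannot be told apart in this comparison. Of 12 macrophage markers tested 11 rose as well, and of 10 fibroblast markers all. Of 15 pigment cell markers 14 fell and 1 rose. In 8 genes, the 7 and Tlr4, every primed library lay above every non-primed library, as in 33.7% of all genes, and in none below, as in 28.0%. Over all genes 4754 were called higher and 3774 lower, a split that became 3858 and 5680 with quantile normalization (median difference -0.24) and 4209 and 4434 with median-centred libraries, and the 7 genes were called under both.

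Tlr4, Tlr3 and Tlr1 did not pass between primed and non-primed cultures. Tlr4 differed by 0.67 ± 0.28 (limma adjusted p = 0.0646), Tlr3 by -0.09 ± 0.51 and Tlr1 by 0.09 ± 0.86. Tlr1 averaged 6.35 ± 0.71 in primed and 6.26 ± 2.10 in non-primed cells (SD, n = 3 each), and its direction turned to -0.050 with median-centred libraries, -0.96 with quantile normalization and -1.13 ± 0.45 without non-primed library 3. Without non-primed library 3 Tlr4 differed by 0.27 ± 0.14, and the 7 genes named above were still called, against 26.8% of all genes. Without non-primed library 1 Tlr4 was called higher.

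**Figure D3:**
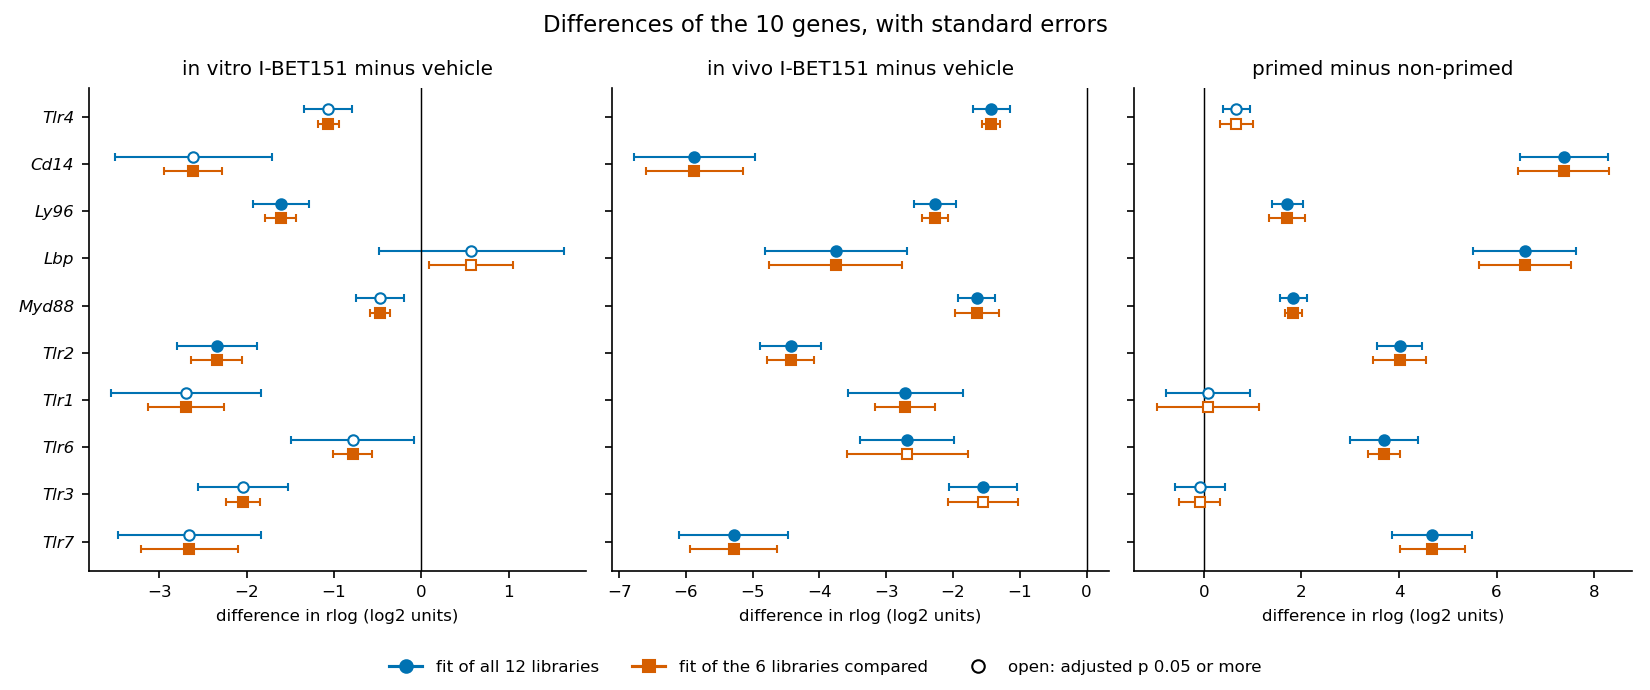
Differences in rlog (log2 units) with standard errors for the 10 genes in 3 comparisons, from the fit of all 12 libraries (circles) and of the 6 libraries compared (squares); filled symbols have an adjusted p under 0.05. In vitro, 9 genes are filled in the fit of 6 libraries and Lbp (0.57) is not; between primed and non-primed cultures Tlr1 and Tlr3 lie at 0.09 and -0.09.

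In vitro treated were compared with in vivo treated cultures. No gene among 16459 was called in limma at an adjusted p under 0.05 in either direction (0% of all genes), while 5341 genes and 6 of the 10 had an unadjusted p under 0.05. Lbp was higher in vitro by 4.33 ± 1.06 (limma adjusted p = 0.122), at 13.13 ± 0.79 in vitro and 8.80 ± 1.93 in vivo (SD, n = 3 each), and Cd14 by 3.26 ± 0.90. Tlr1 lay at 3.65 ± 0.49 in vitro and 3.64 ± 0.33 in vivo, a difference of 0.02 ± 0.86 that turned to -0.075 with median-centred libraries and -0.38 with quantile normalization. In 6 genes, Tlr2, Tlr4, Cd14, Ly96, Lbp and Myd88, every in vitro library lay above every in vivo library, as in 11.6% of all genes. Without in vivo library 1, Tlr2, Tlr6, Tlr7, Cd14, Lbp and Myd88 were called higher in vitro, against 27.2% of all genes, and Tlr3 lower, against 21.9%. The 2 in vivo libraries left there are both pigment-rich, and 9 of 10 fibroblast and 11 of 12 macrophage markers were called higher in vitro and 14 of 15 pigment cell markers lower. Against in vivo library 1 alone Lbp was higher by 2.10 ± 1.24 and Cd14 by 1.71 ± 1.17, and Tlr6 lay at -0.18 ± 0.37, with none called.

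In vivo treated primed cultures were also set against non-primed vehicle cultures, as both hold pigment-rich libraries. No gene of 16459 was called in limma in either direction (0% of all genes), with 3366 genes and 4 of the 10 at an unadjusted p under 0.05. Tlr1 differed by -2.63 ± 0.86, Tlr3 by -1.64 ± 0.51, Tlr4 by -0.76 ± 0.28 and Lbp by 2.82 ± 1.06 (limma adjusted p = 0.222 for each). The groups were separate in none of the 10, against 8.71% of all genes upward and 8.62% downward. Without non-primed library 3, Tlr1 (-3.84 ± 0.45), Tlr3 (-2.12 ± 0.49), Tlr4 (-1.16 ± 0.14) and Ly96 (-0.95 ± 0.22) were called lower in treated cultures, against 9.08% of all genes, and none higher, against 8.01%. No pigment cell, fibroblast or macrophage marker passed there, with medians of -4.39, 0.62 and -0.07. In vivo library 1 lay at 5.622 for pigment cell markers, and in vivo 2 and 3 at 12.61 and 12.6. Of other cell types, 1 of 1 B and T cell, 1 of 4 endothelial and 1 of 2 keratinocyte markers fell. The 1 neutrophil marker tested did not pass. The part of cell content in these calls was not tested. With in vivo library 1 alone, which sets 1 pigment-poor library against 3 pigment-rich ones, Lbp (5.05 ± 1.24), Tlr6 (3.09 ± 0.37) and Myd88 (0.94 ± 0.21) were called higher, against 19.8% of all genes, and Tlr3 lower (-2.82 ± 0.54), against 15.6%. In that fit 9 of 10 fibroblast markers rose (median 5.85) and 13 of 15 pigment cell markers fell (median -9.53); their part in these calls was not tested.

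Other genes of the pathway were counted by lists of their roles, in vitro treated against primed vehicle cultures first. In the fit of the 6 libraries compared, where 16.9% of all genes were called lower and 13.4% higher, of 23 adaptors and proximal kinases 7 fell and 1 rose (median -0.26). Irak2, a kinase recruited by MyD88, changed by -1.77 ± 0.13, Ikbke, a kinase of the interferon branch, by -1.09 ± 0.17 and Ikbkg, the regulatory subunit of the IkB kinase, by -1.01 ± 0.08. Of 13 inhibitors of the pathway 5 fell and 1 rose (median -0.54). Il1rl1, the interleukin-33 receptor, changed by -3.78 ± 0.58 and Tnfaip3, the ubiquitin-editing enzyme A20, by -1.53 ± 0.37, and Sarm1, an adaptor that restrains TRIF signalling in human cells, rose by 1.86 ± 0.26. Of 11 transcription factors 5 fell and none rose (median -0.46), among them Irf5 at -1.42 ± 0.26, Relb at -0.71 ± 0.14 and Nfkb1 at -0.67 ± 0.18.

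Among 9 tested co-receptors and chaperones 3 fell and 1 rose in the same fit (median -0.72). Cd180, a TLR4-like regulator, changed by -2.42 ± 0.36 and Unc93b1, which escorts endosomal receptors, by -1.09 ± 0.19, while the chaperone Cnpy3 rose by 0.46 ± 0.11. Of the other Toll-like receptors 2 were expressed enough to be tested, and Tlr13, a sensor of bacterial ribosomal RNA, fell by 1.50 ± 0.40. Among 9 endogenous ligands 2 fell and 1 rose (median 0.01), with S100a8 at -3.20 ± 0.69, the matrix protein Tnc at -1.64 ± 0.27 and the proteoglycan Vcan at 0.82 ± 0.24. Among 8 other sensors of crystals and particles 4 fell (median -1.60), including Nlrp3, the inflammasome sensor, at -3.67 ± 0.33 and the ATP receptors P2ry2 (-1.82 ± 0.29) and P2rx7 (-1.70 ± 0.21). In the fit of all 12 libraries 4 genes of these lists fell, Nlrp3, Syk (-1.51 ± 0.20), Ikbke and Ikbkg.

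**Figure D4:**
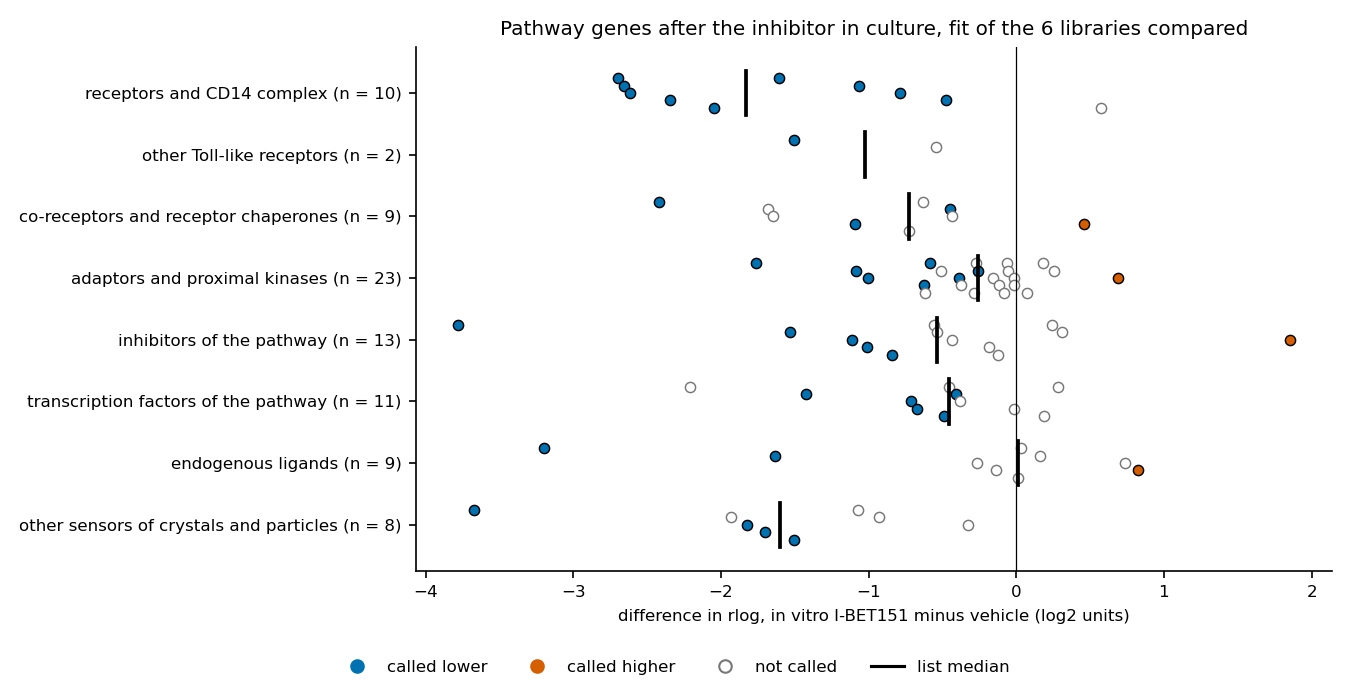
Difference in rlog (log2 units) between in vitro treated and vehicle cultures for each tested gene of 8 lists, from the fit of the 6 libraries compared; blue points were called lower, orange higher, open points neither, and the bar is the list median. The median of the 10 receptor and CD14 complex genes is -1.83, that of the adaptors and kinases -0.26 and that of the endogenous ligands 0.01.

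In vivo, in the fit of all 12 libraries, where 21.8% of all genes were called lower and 17.9% higher, 9 of 11 transcription factors fell (median -1.36), 10 of 23 adaptors and kinases fell and 2 rose (median -0.12), 7 of 13 inhibitors fell and 1 rose (median -0.68), and all 8 other sensors fell (median -3.90). Irf7, a transcription factor of the interferon response, changed by -4.90 ± 0.98, Zc3h12a, an RNase that degrades inflammatory transcripts, by -3.87 ± 0.52, Irak2 by -2.77 ± 0.53 and Marco, a scavenger receptor of macrophages, by -5.03 ± 0.83. Of 9 co-receptors and chaperones 5 fell, both other Toll-like receptors tested fell, and of 9 ligands 4 fell and 1 rose. In the fit of the 7 libraries low in pigment markers, which holds 1 in vivo library, the medians of the first 4 lists were -0.95, -0.26, -1.22 and -2.42, against -0.01 over all genes. There the medians of co-receptors and chaperones, other receptors and ligands were -1.66, -1.43 and -0.06, against -2.75, -2.75 and -2.45 in the fit of all libraries. In the fit of the 6 in vivo and vehicle libraries 13.8% of all genes were called lower and 10.2% higher. There 8 of 11 transcription factors, 8 of 23 adaptors and kinases, 5 of 13 inhibitors and 7 of 8 other sensors fell. In the same fit 5 of 9 co-receptors and chaperones, 1 of 9 ligands and 1 of 2 other receptors fell, while 1 adaptor or kinase and 2 inhibitors rose.

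Between primed and non-primed cultures, where 28.9% of all genes were called higher and 22.9% lower, 9 of 11 transcription factors rose (median 1.24), 10 of 23 adaptors and kinases rose and 5 fell (median 0.27), 7 of 13 inhibitors rose and 2 fell (median 0.42) and 7 of 8 other sensors rose (median 3.95). Irak3, a kinase-dead brake on MyD88 signalling, changed by 6.42 ± 1.08, Peli2, a ubiquitin ligase of IRAK kinases, by 5.59 ± 1.16 and S100a8 by 5.91 ± 0.89. Of 9 co-receptors and chaperones 6 rose, of 9 endogenous ligands 6 rose and 2 fell, and of the 2 other receptors tested Tlr13 rose by 3.79 ± 0.89. Pigment markers divide this comparison as they do for the receptors.

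Among the 10 genes, Tlr6 and Myd88 had the most similar profiles (Pearson r = 0.965 over 12 libraries), followed by Cd14 and Myd88 (0.962), and Tlr3 and Lbp the least similar (-0.348). Tlr1 and Tlr6, the neighbouring pair, had an r of -0.00171. Among the genes most like Tlr2 were Ikbke (0.99) and Tnip3, an inhibitor of NF-kB (0.9823). Those most like Tlr3 were Nmi, an interferon-responsive gene (0.9862), the spliceosome gene Snrpb2 (0.9838) and St7 (0.9827). Those most like Cd14 were H2-T-ps (0.9905), the transporter gene Slc22a4 (0.9873) and Erich2 (0.9846), and those most like Lbp were Ptx3, a secreted pentraxin (0.9875), the chaperone gene Clu (0.9871) and Adgrg2 (0.9844). The points share the group and pigment split of the libraries, and 1462 of 13811 genes had an r over 0.9 with Cd14, 1511 with Lbp, 640 with Tlr2 and 199 with Tlr3, so these values are a description only.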

How the data were processed

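Values are on the log2 scale: the authors deposited 1 table of regularized log (rlog) expression for 55413 Ensembl genes, of which 19136 are listed at 0 in every library. The submitters' processing notes name DESeq2 1.24.0, Subread 1.6.1 (featureCounts), STAR 2.6.1c, cutadapt 1.18 and the build GRCm38, per the labels, without settings. Libraries were prepared with a stranded poly(A) kit, per the labels' protocols. The transformation shrinks differences of weakly expressed genes and keeps no counts, so no counting interval was possible and the number of libraries limits the precision.

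Symbols came from GENCODE M21 and matched all 55413 identifiers. Genes with a mean of at least 3 were tested. limma 3.58.1 in R 4.3.3 fitted 1 mean per group to all 12 libraries (variance trend), with two-sided tests and Benjamini-Hochberg adjustment over all genes tested; an adjusted p under 0.05 was called. Exact permutation of 3 against 3 libraries was not run, its smallest p being 0.1. Differences are tested minus compared group as named, with SE from the fit. The procedure was tested on simulated data in which a gene had the same spread in every group. The in vivo and non-primed groups here mix unlike libraries, so that test does not bear on calls in them. Alternatives were the filter, variance model, centring, quantile normalization, array weights, libraries in the fit, a replicate block and each library left out. The fit of 7 libraries, and leaving out libraries in the fit of 6, were added after seeing the data. Pathway genes are named from the 3 largest differences among the calls of a list, and not all of these are printed. The genes, lists and rules were chosen with earlier results of these data known. One of the genes with a profile most like that of Tlr2 is not reported here.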

Additional observations from a re-analysis of the deposited data

How the results depend on the processing

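Counts of the 10 genes called stayed within 1.5 times in the settings not named here. For in vitro treated against vehicle, 2 genes were called lower in the fit of all libraries, 5 with quantile normalization, 8 with array weights, 9 in the fits of only the 6 libraries compared and of only the 7 low in pigment markers, and 1 with the replicate number as a block; leaving out 1 library gave 0 to 1 in the fit of 12 libraries and 7 to 8 in that of 6. For in vivo treated against vehicle, 10 were called lower, 1 with in vivo library 1 alone and 6 to 9 with 1 library left out. For in vitro against in vivo, none was called, but array weights gave 8 higher and 1 lower, and leaving out 1 library gave 0 to 6 higher and 0 to 1 lower. Over the 16459 genes tested, array weights called 6519 higher and 5724 lower there. Leaving out 1 library gave 0 to 4474 higher and 0 to 3611 lower over all genes. For in vivo treated against non-primed, none was called, array weights gave 5 lower, in vivo library 1 alone gave 3 higher and 1 lower, and leaving out 1 library gave 0 to 4 lower. For primed against non-primed, 7 were called higher, and 7 to 8 with 1 library left out. Over all genes tested, 3848 to 4414 were called higher there with 1 library left out. In vitro against vehicle, 582 were called lower with quantile normalization, 3353 with array weights and 124 with the block. Leaving out 1 library gave 11 to 249 in the fit of 12 and 1547 to 2559 in that of 6. In vivo against vehicle, leaving out 1 library gave 1446 to 5512 lower. In vivo against non-primed, array weights gave 3365 lower, and leaving out 1 library 0 to 1494. The replicate block is an alternative only, since libraries sharing a number did not deviate together (r -0.4347 to 0.3687 over 18 pairs, over 0.1 in 4). The block changed no other count of the 10 genes by over 1.5 times. The cause of these changes was not tested.

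Turns of direction occurred in differences that were not called. Between primed and non-primed cultures Tlr1 (0.09) gave -0.050 with median centring, -0.96 with quantile normalization, -0.85 with array weights and -1.13 to 0.72 with 1 library left out, and Tlr3 (-0.09) gave -0.57 to 0.21. For in vitro against in vivo, Tlr1 (0.02) gave -0.075, -0.38 and -0.018 under the same settings and -0.26 to 0.21 with 1 left out, while with in vivo library 1 alone, or the 7 libraries, Tlr3 gave 0.69 and Tlr6 -0.18. For in vivo against non-primed, array weights gave -0.035 for Tlr6 and -0.25 for Myd88, in vivo library 1 alone gave 0.66 for Tlr7, and leaving out 1 library gave -0.027 to 1.57 for Tlr6, -1.26 to 0.069 for Tlr7 and -0.18 to 0.40 for Myd88. Depth could not be judged from these values.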
